A study of Homo sapiens with 4 samples.

Results

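The lysyl oxidase family was read from 15 probe sets whose annotation names exactly 1 of its genes: 6 of LOX, 1 of LOXL1, 4 of LOXL2, 2 of LOXL3 and 2 of LOXL4, out of 44988 probe sets that each name a single gene. Per the labels, all RNA was taken from MDA-MB-231, an established invasive human breast cancer line without oestrogen receptor, which according to the study's methods also carried GFP and luciferase. Marker genes of the arrays labelled ELK3 shRNA went against that label, as given with the values of the whole series. The 2 control arrays held RNA of cells stably transduced with a retroviral control shRNA and the 2 knockdown (KD) arrays RNA of cells stably transduced with a retroviral shRNA against ELK3, an ETS domain transcription factor. All cells were selected with puromycin and grown with serum, with no other treatment, and the labels do not say which of the study's selected lines each array represents. In ELK3 KD cells LOX, LOXL2 and LOXL4 were each more than 4-fold lower than in control cells at their brightest probe set, whereas LOXL1 and LOXL3 did not pass the test.

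Lysyl oxidases are secreted, copper-dependent amine oxidases. They turn the side chains of lysines in collagen and elastin into aldehydes, which then join neighbouring chains into cross-links and stiffen the matrix. LOX and LOXL1 are made with a propeptide that is cut off outside the cell, whereas LOXL2, LOXL3 and LOXL4 carry scavenger receptor cysteine-rich domains in front of a catalytic domain that all members share. In breast cancer LOX and LOXL2 are known for hypoxia-induced expression and for a role in invasion and metastasis.

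The values were log2 intensities from RMA, so a difference of 1 is a 2-fold difference. Array medians ran from 6.23 to 6.27. ELK3 itself was lower at both of its probe sets, by -2.50 and -3.14. As a guide to background, 359 probe sets of olfactory receptor genes, which breast cells are not known to use, had a 95th percentile of 5.70 over the mean of the 4 arrays. A group mean below it limits the size of a difference. Groups were compared with limma, with p-values adjusted by the Benjamini-Hochberg method over all 44988 probe sets or, with the brightest probe set per gene, over 18132 genes. The arrays differed widely: 48.9% of probe sets and 49.5% of genes passed an adjusted p under 0.05. Of 6 genes known as high in MDA-MB-231 cells, among them VIM, CD44 and AXL, 6 were called lower in KD cells, beside 23.5% of all genes. Of 13 measured markers of HEK293, the kidney-derived line in which retroviral particles are often produced, 7 rose and 0 fell. That is 53.8% called, all of them higher, beside 49.5% of all genes called in either direction and 26% called higher. The other markers did not pass. PAX2, DCX and NEFM had both group means below the guide, whereas STMN2 (-0.3), INA (0.1) and SALL4 (0.03) lay above it. The summed intensity of the 13 ran from 1310 to 1410 in control and from 8020 to 8280 in KD arrays. CKB (11.64) and NEFL (10.95) had the highest KD means. Of 6 genes known as low in MDA-MB-231 cells, 2 were called (33.3%), both higher. CDKN2A, which the parental line is known to lack, read 5.10 and 4.61 in control and 11.33 and 11.43 in KD arrays, and its neighbour CDKN2B was higher by 3.94. ESR1 (-0.17), PGR (-0.22), CDH1 (-0.07) and KRT19 (0.79) did not pass. The identity of the cells on the KD arrays is therefore in doubt, and KD stands here for the arrays labelled ELK3 shRNA. Whether a difference of the lysyl oxidases follows the ELK3 shRNA or another difference between the cells cannot be told apart. The labels call the arrays biological repeats without saying what was repeated, so p-values measure the spread between these arrays only.

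The sequence upstream of LOX and LOXL4, which of the 3 lysyl oxidases that fell were the nearest to each other over the arrays, is shown because ELK3 is an ETS factor and LOX is a hypoxia-induced gene. Upstream sequences from RefSeq (GRCh38.p14) were matched for 4 of the 5 genes, LOX, LOXL1, LOXL3 and LOXL4, and that of LOXL2 was not analysed here. The 250 bases before the most upstream start are given 5′ to 3′ on the strand of the gene, for LOX chr5:122078260-122078509 and for LOXL4 chr10:98268195-98268444, both on the minus strand. Capitals mark the ETS core GGAA and the hypoxia response core ACGTG on either strand.
LOX: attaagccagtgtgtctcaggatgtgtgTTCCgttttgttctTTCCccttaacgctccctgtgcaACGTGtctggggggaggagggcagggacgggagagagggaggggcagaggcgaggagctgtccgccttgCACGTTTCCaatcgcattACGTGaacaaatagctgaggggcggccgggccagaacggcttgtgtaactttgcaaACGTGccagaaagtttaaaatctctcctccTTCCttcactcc
LOXL4: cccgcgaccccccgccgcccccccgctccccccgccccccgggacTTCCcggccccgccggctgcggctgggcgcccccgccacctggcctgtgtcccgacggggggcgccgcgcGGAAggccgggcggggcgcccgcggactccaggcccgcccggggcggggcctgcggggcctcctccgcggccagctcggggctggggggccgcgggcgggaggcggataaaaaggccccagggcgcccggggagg
LOX holds 4 matches of ACGTG, beginning 185, 116, 98 and 42 bases before the start, and the second of them directly adjoins a match of GGAA, both read on the strand opposite to the gene. Only 0.7% of all 35116 upstream windows of that length hold as many, and 18.5% hold any. The windows are of starts and not of genes: LOX alone has 3 starts, of which only the most upstream was read. No match of ACGTG lies in the windows of LOXL1, LOXL3 and LOXL4, which says only that these letters are not there. GGAA was found 4 times for LOX, 3 times for LOXL1, 5 times for LOXL3 and 2 times for LOXL4. With 92.7% of all windows holding it, its presence does not set the family apart. The letters GATA, of the core that GATA factors bind, are absent from the windows of LOX, LOXL1 and LOXL3 and occur 1 time in that of LOXL4, beginning 30 bases before the start, against 45.6% of all windows. These are matches of letters, and binding was not measured.

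Of the 15 probe sets, 12 were called lower in ELK3 KD cells, none was called higher and 3 did not pass. Over all probe sets 24.3% were called lower and 24.6% higher. For 14 of 15 both KD arrays lay below both control arrays, which was so for 41.2% of all probe sets. More than 4-fold falls were seen for 9 of 15, against 2.27% of all probe sets. Probe sets of 1 gene read the same RNA and are not replicates, so the counts by gene come next. At 1 probe set per gene, 3 of 5 lysyl oxidases were called lower and all 3 were more than 4-fold lower, where 23.5% of 18132 genes were called lower, 26% higher and 2.32% were more than 4-fold lower.

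**Figure D1:**
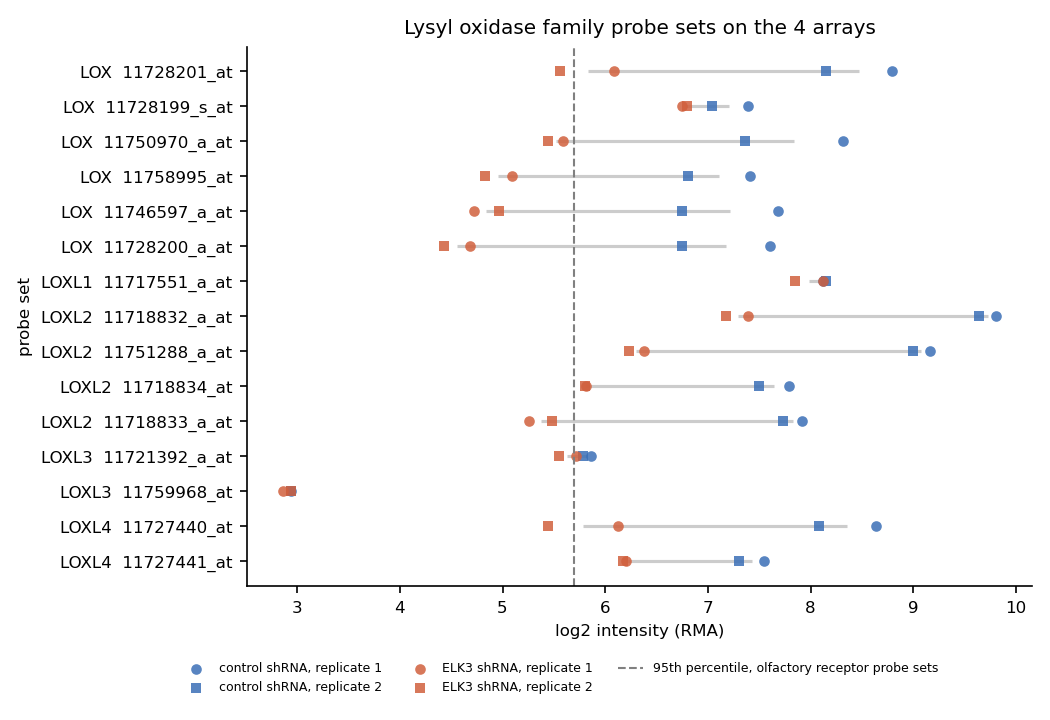
Log2 intensity (RMA) of the 15 lysyl oxidase probe sets (rows) on each array: blue for control shRNA, orange for ELK3 shRNA, circles for replicate 1 and squares for replicate 2, with a grey line between the group means and a dashed line at the background guide of 5.70. The orange points of LOX, LOXL2 and LOXL4 lie left of the blue ones in every row, by least in LOX 11728199_s_at, while those of LOXL1 and LOXL3 lie close to them.

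LOX, the founding member, cross-links collagen and elastin in vessel walls and many other tissues. Its brightest probe set, 11728201_at, read 8.79 and 8.15 in control and 6.09 and 5.56 in KD arrays. Both KD values lay below both control values, although the arrays within each group were also apart, with an SD of 0.45 in control and 0.37 in KD cells. The log2 fold change was -2.64 (95% interval -3.33 to -1.94, adjusted p = 0.00118 from limma), a 6.23-fold fall.
Of the other LOX probe sets, 11728200_a_at read 7.61 and 6.75 in control and 4.68 and 4.43 in KD arrays, a log2 fold change of -2.62. The set 11750970_a_at read 8.32 and 7.36 against 5.59 and 5.44, a change of -2.32. Both are therefore of the size seen at the brightest set. The set 11746597_a_at read 7.68 and 6.75 in control and 4.72 and 4.97 in KD arrays (-2.37), and 11758995_at read 7.41 and 6.81 against 5.09 and 4.83 (-2.15). The KD means of these 4 sets, but not of 11728201_at, lay below the background guide, so the size of their fall is limited by background.
The remaining LOX probe set, 11728199_s_at, differed from the rest. It read 7.39 and 7.04 in control and 6.75 and 6.80 in KD arrays, a log2 fold change of only -0.44 (95% interval -0.78 to -0.09, adjusted p = 0.0462 from limma). Its interval does not overlap that of any of the other 5 LOX sets, whose upper bounds ran from -1.94 to -1.51. By the naming of the manufacturer, a set ending in _s_at can also match transcripts of other genes. The annotation names only LOX for it, and whether other transcripts bear on its smaller change was not tested. The call of this set was lost without control replicate 1 (adjusted p = 0.0778) and without KD replicate 1 or 2 (adjusted p = 0.206 and 0.170), and under a replicate block (adjusted p = 0.0673).
The 2 control arrays differed in LOX in the same direction at every probe set. Control replicate 1 was above control replicate 2 by 0.35 to 0.96 at the 6 sets, whereas the median absolute difference between these arrays over all probe sets was 0.13. A difference of at least 0.35 in that direction was seen for 5.46% of all probe sets and one of at least 0.96 for 0.345%. Without control replicate 1 the fall of LOX at its brightest set was -2.32, and without control replicate 2 it was -2.96.

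LOXL2 cross-links collagen IV of basement membranes and is known in breast cancer as an extracellular and an intracellular protein. Its brightest probe set, 11718832_a_at, read 9.81 and 9.64 in control and 7.39 and 7.18 in KD arrays. Groups were far apart and arrays within a group close, with SDs of 0.12 and 0.15. The log2 fold change was -2.44 (95% interval -2.73 to -2.15, adjusted p = 0.000115 from limma), or 5.42-fold lower.
The set 11751288_a_at gave the largest fall of the family: it read 9.16 and 9.00 in control and 6.38 and 6.23 in KD arrays, a log2 fold change of -2.78 (adjusted p = 6.69e-05 from limma). The set 11718833_a_at read 7.92 and 7.73 against 5.26 and 5.48 (-2.45), its KD mean below the background guide. The set 11718834_at read 7.79 and 7.50 against 5.81 and 5.80 (-1.84). All 4 sets thus fell, by 3.59- to 6.86-fold, and the fall did not rest on 1 set. LOXL2 had the narrowest intervals of the 3 genes that fell at their brightest sets, and it was the only one still called by Student's t-test per gene after adjustment (adjusted p = 0.0271).

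LOXL4, a member with scavenger receptor domains like LOXL2, was read by 2 probe sets that fell by different amounts. The set 11727440_at read 8.64 and 8.08 in control and 6.12 and 5.44 in KD arrays. The groups did not overlap, but arrays within a group differed by 0.56 and 0.67. The log2 fold change was -2.58 (95% interval -3.31 to -1.85, adjusted p = 0.00151 from limma). The set 11727441_at read 7.55 and 7.30 in control and 6.20 and 6.17 in KD arrays, a log2 fold change of -1.24 (95% interval -1.52 to -0.96, adjusted p = 0.000722 from limma). The lower bound of the one interval and the upper bound of the other do not meet, so the size of the LOXL4 fall, 5.97-fold or 2.36-fold, depends on the probe set. With the mean of both sets it was -1.91 on the log2 scale.

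LOXL1, which is needed for elastic fibres to be maintained, did not pass the test. Its only probe set, 11717551_a_at, read 8.12 and 8.15 in control and 8.12 and 7.85 in KD arrays. The KD array of replicate 1 was barely below the controls, and that of replicate 2 was lower. The log2 fold change was -0.15, with a 95% interval of -0.44 to 0.14 (adjusted p = 0.337 from limma). The interval leaves room for a fall of 0.44 but not for one of the size seen in LOX, LOXL2 or LOXL4 at their brightest sets.
LOXL3, a member known for roles in cartilage, palate and muscle development in mice, was near the background guide. The set 11721392_a_at read 5.86 and 5.78 in control and 5.72 and 5.55 in KD arrays, a log2 fold change of -0.19 (95% interval -0.43 to 0.06, adjusted p = 0.168 from limma). The set 11759968_at read 2.94 in both control arrays and 2.86 and 2.94 in KD arrays. At these levels a fall of LOXL3 could hardly be seen. By the gene-level fit LOXL3 did pass when arrays were centred on their medians (-0.32, adjusted p = 0.0268) and when they were quantile normalized once more (adjusted p = 0.0396). Centring moved the median log2 fold change of all genes from -0.05 to -0.19 and the share of higher calls among all calls from 52.6% to 36.6%, so the LOXL3 call under centring comes with a general downward shift. Quantile normalization once more moved the median and the share less, to -0.08 and 47.3%, with LOXL3 at -0.3. The changes of 2 different genes were not tested against each other.

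**Figure D2:**
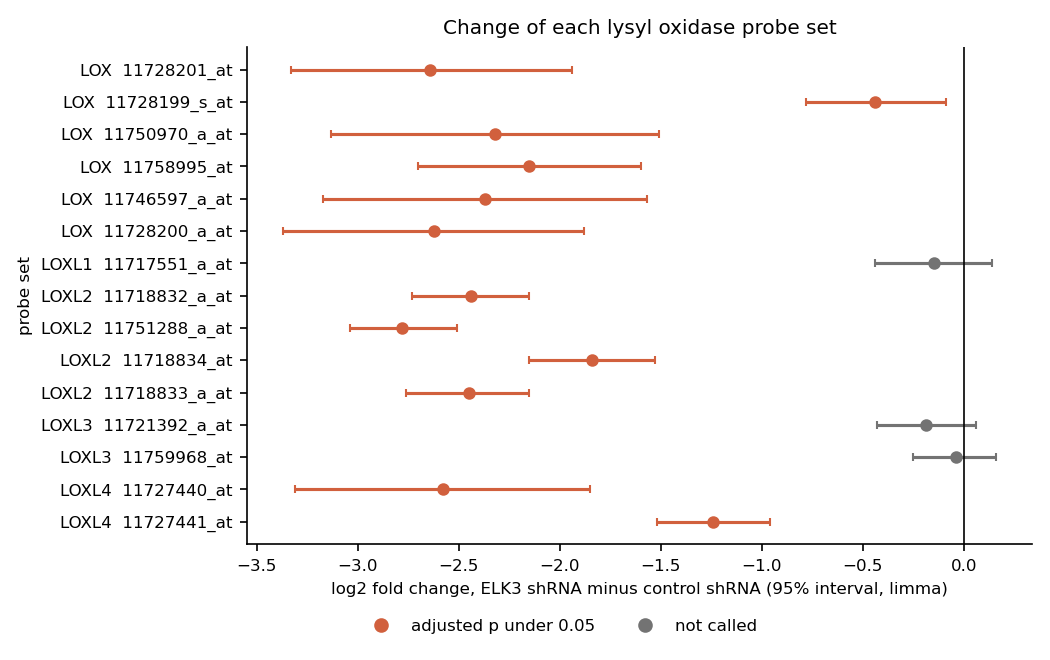
Log2 fold change of each lysyl oxidase probe set (rows), ELK3 shRNA minus control shRNA, with its 95% interval from limma, orange where the adjusted p over 44988 probe sets was under 0.05 and grey where it was not. Of the 12 orange sets 11 lie between -2.78 and -1.24 and LOX 11728199_s_at at -0.44, and the intervals of the 3 grey sets include 0.

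**Figure D3:**
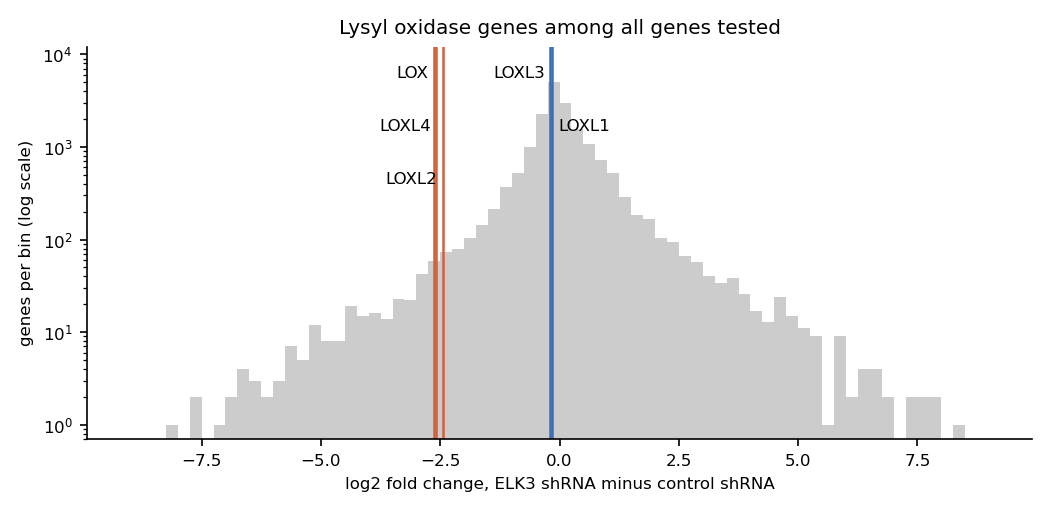
Number of genes (log scale) by log2 fold change, ELK3 shRNA minus control shRNA, in bins over 18132 genes, with vertical lines at the 5 lysyl oxidases, orange for those called lower and blue for those not called. LOX, LOXL4 and LOXL2 lie at -2.64, -2.58 and -2.44 in the lower tail, and LOXL3 and LOXL1 at -0.19 and -0.15 near the centre.

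Among 18132 genes, 1.29% had a lower log2 fold change than LOX, 1.36% than LOXL4 and 1.61% than LOXL2, against 33.8% for LOXL3 and 38.2% for LOXL1. The distribution of all genes shows the same order. To find the genes whose values went most like those of each called member, the 4 values of every gene were centred on their mean and compared by root mean square difference. The nearest 3 genes to LOX were LIPH, a membrane phospholipase (0.0427 on the log2 scale), ITGA2, the alpha chain of a collagen-binding integrin (0.05), and LOXL4 (0.0658). LOXL4 in turn had LIPH (0.0577), LOX (0.0658) and ITGA2 (0.0658). LIPH read 6.57 and 5.99 in control and 3.97 and 3.46 in KD arrays, and ITGA2 read 9.24 and 8.56 against 6.62 and 6.08. In each of these genes replicate 1 was above replicate 2 in both groups, as at the brightest sets of LOX and LOXL4. At LOX 11746597_a_at and 11728199_s_at KD replicate 1 was below KD replicate 2 (-0.25 and -0.04). LOXL2, whose replicates were closer, had EPG5 (0.0306), an autophagy gene, CCN1 (0.0384), a matricellular protein, and TFPI (0.0408), a coagulation inhibitor, as its nearest genes. With 4 arrays in 2 groups such likeness rests mostly on the group difference and is a description only.

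Genes that act with lysyl oxidases were looked up in 7 lists and read at 1 probe set per gene. In none of them did the called genes go 1 way only, and the list medians of log2 fold change ran from -0.38 to 0.08, beside -0.05 for all genes. The share of genes called ran from 38.5% to 75%, beside 49.5% of all genes. The values below are log2 intensities and their differences.

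Of 13 genes for proteins that process or bind lysyl oxidases, 3 were lower, 2 were higher and 8 did not pass (38.5% called, median -0.05). BMP1, the main protease that releases the LOX propeptide, read 6.50 and 6.42 in control and 6.27 and 6.34 in KD arrays (-0.16, adjusted p = 0.158 from limma). The thrombospondin gene THBS1, a matrix glycoprotein that binds LOX, fell most, from 10.48 and 10.70 to 4.77 and 4.49 (-5.96, adjusted p = 2.36e-05), with 5 of 5 probe sets lower. Fibronectin, FN1, on which LOX is activated, read 8.89 and 8.33 in control and 7.51 and 7.08 in KD arrays (-1.32), with 8 of 8 probe sets lower. The fibulins that bring LOX and LOXL1 to elastic fibres went the other way: EFEMP2 (fibulin-4) rose from 7.05 and 6.57 to 8.03 and 7.95 (1.18) and FBLN5 from 5.64 and 5.47 to 6.19 and 6.04 (0.56). TLL1, a protease related to BMP1, had both means below the background guide (-0.40).

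Substrates of the family were split. Of 17 collagen chains 7 were higher, 4 lower and 6 not called (64.7% called, median 0.08). COL4A6 was among those not called at the brightest set (0.06). Another of its sets, with a control mean below the background guide, was higher by 3.41 (adjusted p = 7.86e-05 from limma). COL3A1, of fibrillar collagen III, rose from 3.25 and 3.73 to 7.07 and 6.80 (3.45), COL5A2 from 5.22 and 5.01 to 7.14 and 6.96 (1.93) and COL4A5 from 5.85 and 5.70 to 7.04 and 6.61 (1.05). All 5 probe sets of COL3A1 were higher, 3 of 6 of COL5A2 and 2 of 3 of COL4A5. COL4A2, of the basement membrane collagen that LOXL2 cross-links, fell from 10.03 and 9.86 to 9.20 and 8.88 (-0.90), while its partner chain COL4A1 read 9.69 and 9.52 against 9.50 and 9.31 (-0.20, adjusted p = 0.186 from limma). Another COL4A1 probe set, 1 of 3, was called lower (-0.37, adjusted p = 0.0234 from limma). COL27A1 fell by 0.56 at its only probe set. COL11A1 changed by -0.40 and was called at 1 of 7 sets, with both means of that set below the background guide.
Of 15 elastic fibre genes 4 were higher, 2 lower and 9 not called at the brightest set (40% called, median -0.09). Some of those not called passed at another set. EFEMP1 changed there by -1.58 (adjusted p = 0.000509 from limma), with both means above the background guide, against -0.09 at its brightest set. LTBP2 changed by -1.09 (adjusted p = 0.00476 from limma), its KD mean below the guide. LTBP1 went the other way, higher by 0.68 (adjusted p = 0.0216 from limma). FBN2, a microfibril component of developing tissues, rose from 3.66 and 3.74 to 9.70 and 9.24 (5.77), at 3 of 5 probe sets. FBLN1, fibulin-1, rose from 6.21 and 5.50 to 9.51 and 9.33 (3.57), at 5 of 8, and MFAP2, a microfibril glycoprotein, from 7.05 and 7.58 to 9.52 and 9.51 (2.20), at 1 of 2. Elastin itself, ELN, read 6.70 in both control and 6.43 and 6.48 in KD arrays (-0.24, adjusted p = 0.0448 from limma), and none of its 3 probe sets passed in the fit of all probe sets. EMILIN2 changed by -0.54.

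Enzymes that prepare collagen inside the cell, before lysyl oxidases meet it, were called for 12 of 16 genes, 8 lower and 4 higher (75% called, median -0.38). P3H2, a prolyl hydroxylase, fell from 9.48 and 9.07 to 6.74 and 6.75 (-2.53) at 1 of 2 probe sets, PLOD3, a lysyl hydroxylase with glycosyltransferase activity, from 9.91 and 9.92 to 8.65 and 8.52 (-1.32) and P4HA1, a catalytic subunit of another prolyl hydroxylase, from 9.92 and 9.66 to 8.81 and 8.71 (-1.03). PLOD2, which hydroxylates the telopeptide lysines used for cross-links, read 10.67 and 10.17 in control and 10.12 and 9.86 in KD arrays (adjusted p = 0.126 from limma). In contrast, FKBP10, a chaperone that acts with PLOD2, rose from 3.66 and 3.85 to 10.09 and 9.88 (6.23, adjusted p = 1.82e-05 from limma), with 5 of 5 probe sets higher and a control mean below the background guide. P3H4 rose from 6.62 and 6.58 to 8.86 and 8.73 (2.19), and PLOD1, which hydroxylates helical lysines, from 8.55 and 8.47 to 9.13 and 9.13 (0.63).

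Copper reaches lysyl oxidases in the secretory pathway. Of 15 copper genes 6 were higher, 3 lower and 6 not called (60% called, median -0.04). ATP7A, the pump that loads copper into secreted enzymes, rose from 5.78 and 5.34 to 8.09 and 7.67 (2.32, adjusted p = 0.00079 from limma) and at both of its probe sets. ATP7B, the related pump best known from liver, rose from 5.96 and 5.63 to 8.20 and 7.85 (2.23) at 1 of 3 probe sets, the others being at most 0.22 apart between groups. STEAP2, a metalloreductase, rose by 0.72. The metallothionein MT2A fell from 13.89 and 13.81 to 11.80 and 11.70 (-2.10), the copper chaperone ATOX1, which hands copper to ATP7A, from 11.07 and 11.13 to 10.55 and 10.53 (-0.56) and the metalloreductase STEAP3 by -0.65.

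Known regulators of lysyl oxidase genes moved both ways, with 6 of 16 lower, 5 higher and 5 not called (68.8% called, median -0.11). The TGF-β receptor TGFBR2 fell from 10.90 and 10.66 to 7.73 and 7.75 (-3.04), the ligand TGFB2 from 6.54 and 6.77 to 4.68 and 4.35 (-2.14) and SNAI2 (Slug) from 9.76 and 9.49 to 7.45 and 7.54 (-2.14). SMAD7, an inhibitor of TGF-β signalling, rose from 6.84 and 7.06 to 8.12 and 8.12 (1.17). SMAD3 (-2.13) and SMAD2 (-0.76) were also called lower. TGFBR3 (0.66) and SNAI1 (0.34) were called higher, SNAI1 with both means below the background guide. TGFBR1 (-0.04), TGFB1 (-0.13), TGFB3 (-0.04) and SMAD4 (-0.10) did not pass. HIF1A, the oxygen-regulated subunit that induces LOX and LOXL2 in hypoxia, was named after its values were seen. It read 11.71 and 11.35 in control and 10.65 and 10.64 in KD arrays (-0.88, adjusted p = 0.00485 from limma), with 8 of 8 probe sets lower. EPAS1, also of this list, did not pass (-0.22, adjusted p = 0.314 from limma). ARNT, the partner of HIF1A, rose by 1.49 at its brightest probe set and at 3 of 5 sets. That call was lost without sets ending in _s_at or _x_at (0.09). GATA3, a luminal factor known to repress LOX in breast cancer cells, rose from 5.95 and 5.75 to 6.82 and 6.97 (1.04), at all 3 probe sets.

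Of 10 other enzymes that oxidize amines or cross-link proteins, 3 were higher, 2 lower and 5 not called (50% called, median 0.05), a share near the 49.5% of all genes. None of the 3 copper amine oxidases AOC1, AOC2 and AOC3 passed. The flavin-dependent MAOB rose from 5.16 and 5.14 to 6.60 and 6.43 (1.36) at 1 of 2 probe sets, PAOX by 0.89 and MAOA by 0.74. TGM2, a transglutaminase that cross-links matrix proteins through glutamine and lysine, fell from 11.34 and 11.13 to 5.38 and 4.89 (-6.10, adjusted p = 4e-05 from limma), with 4 of 4 probe sets lower, and TGM1 changed by -0.34. For THBS1, TLL1, FBLN5, COL3A1, COL5A2, COL11A1, COL27A1, FBN2, FKBP10, ATP7A, TGFB2, TGM1, TGM2 and MAOB the lower group mean was below the background guide, so the size of these changes is limited. It also depended on the probe set: log2 fold changes ran from -5.96 to -1.65 over the sets of THBS1, from -6.10 to -2.42 over those of TGM2, from -0.29 to 5.77 over those of FBN2 and from 2.38 to 6.23 over those of FKBP10.

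Fibroblasts are the usual source of lysyl oxidases in tissue. Of 10 fibroblast markers 3 were higher, 2 lower and 5 not called (50% called), a share near the 49.5% of all genes. Their summed intensities were 289 to 307 in control and 426 to 452 in KD arrays. For 7 of the 10 (PDGFRA, THY1, DCN, FAP, LUM, COL6A3 and COL1A2) both group means lay below the background guide. COL3A1 (3.45) and LUM (3.03) had the largest differences, while COL6A3 (-0.75) and FAP (-0.31) were called lower. Whether the cultures held any fibroblasts, and whether such cells had a part in the lysyl oxidase values, was not tested.

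**Figure D4:**
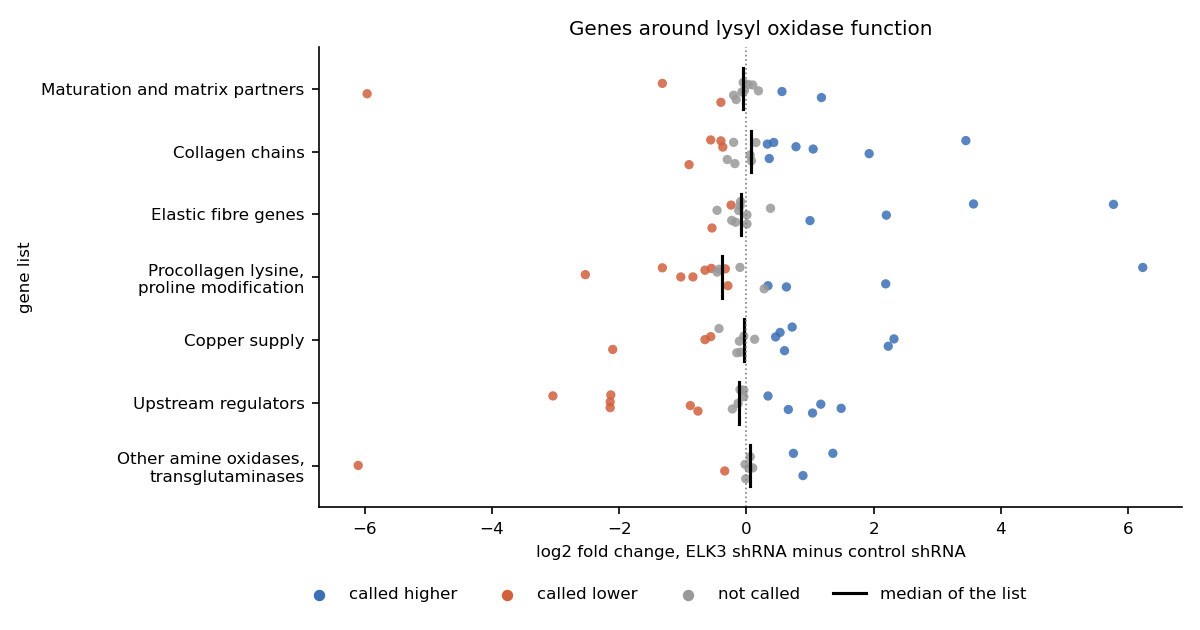
Log2 fold change, ELK3 shRNA minus control shRNA, of each gene (points, spread vertically only for view) in 7 lists of genes around lysyl oxidase function, blue where called higher, orange where called lower and grey where not called, with a black line at each list median. Every list holds called genes in both directions and the medians lie between -0.38 and 0.08.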

How the data were processed

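Control and ELK3 shRNA cells were each profiled on 2 arrays. The authors deposited log2 intensities per probe set, which per the labels were made with RMA in Affymetrix Expression Console (version not given in the sources used here), that is with background correction, quantile normalization between arrays and probe set summary. The paper's own methods name an Illumina BeadChip instead, which does not match the Affymetrix probe set names. RMA compresses low values and hides a change in total RNA. All 4 columns were used. With 2 arrays against 2, an exact permutation test (two-sided) cannot go below p = 0.33.

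Gene names came from the platform's annotation, updated through RefSeq for 44961 of 44988 single-gene probe sets; 1832 naming several genes, 2473 naming none and 102 controls were left out. The test was limma 3.58.1 (lmFit, eBayes) under R 4.3.3, unfiltered and without a block, with Benjamini-Hochberg adjustment at 0.05. It was also run on simulated data with far fewer changed features than were called here, which does not give its error rate in these data. For values by gene the brightest probe set was taken. Lists were described by counts and medians. Named were the members, ELK3, their nearest genes and, per list and direction, up to 3 called genes with the largest change and no overlap of groups. BMP1, COL4A1, COL4A6, EFEMP1, LTBP1, LTBP2, PLOD2, the AOC genes and markers were named after their values were seen. So were HIF1A and the other regulators outside that rule. Members and lists were chosen with earlier results of these data known. Alternatives were filters, scalings, variance priors, probe set summaries, a replicate block, Student's test and each array left out. COLGALT2, HOXA9 and TUBB2B were not analysed here. Figures were drawn with matplotlib 3.10.9.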

Additional observations from a re-analysis of the deposited data

How the results depend on the processing

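Calls among all 44988 probe sets fell from 21991 to 10084 with Student's t-test per probe set, the test the study names for its assays. The count of 12 lysyl oxidase probe sets called lower fell to 5 with this test, and that of 3 genes fell to 1, LOXL2. With each array left out in turn the counts were 11 to 12 probe sets and 3 genes. Under the replicate block they were 11 probe sets and 3 genes, with 19961 of all probe sets called. The labels do not say that a number pairs arrays, and deviations of same-numbered arrays from their group means correlated at 0.015 over probe sets. The block was therefore read as an alternative only. With probe sets above the median level only, 9 were called, since fewer were tested, beside 15552 of all 22494 probe sets tested there. LOX, LOXL2 and LOXL4 were called at gene level under all alternatives other than the t-test (LOX adjusted p = 0.0695, LOXL4 adjusted p = 0.076), with log2 fold changes of -2.96 to -2.02, -2.57 to -2.33 and -2.91 to -1.91. LOXL1 was called under none (-0.28 to -0.01). Leaving out probe sets ending in _s_at or _x_at was chosen after seeing the data. It left 11 lysyl oxidase sets called, turned COL11A1 to 0.09 and took COL5A2 to 0.02 and ARNT to 0.09. The cause was not tested.

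Counts of called genes in the lists moved more. Over all alternatives, higher and lower calls ran from 0 to 4 and 1 to 5 for processing and binding partners, 1 to 9 and 1 to 7 for collagen chains, 2 to 5 and 0 to 4 for elastic fibre genes, 3 to 4 and 5 to 10 for collagen modification, 2 to 6 and 2 to 4 for copper genes, 2 to 6 and 5 to 7 for regulators, and 2 to 3 and 1 to 2 for other enzymes. Over all genes, 8971 calls became 5510 without KD replicate 1, 5664 without KD replicate 2 and 4658 with the t-test. Of the genes named in the lists, some were not called when 1 array was left out. Without KD replicate 1 the adjusted p was 0.0757 for FBLN5, 0.0551 for STEAP2, 0.131 for EMILIN2, 0.164 for TGM1, 0.0529 for TLL1, 0.067 for COL11A1 and 0.22 for ELN. Without KD replicate 2 it was 0.0625 for FN1, 0.111 for COL27A1, 0.104 for TGM1, 0.1 for TLL1, 0.0705 for COL11A1 and 0.148 for ELN. Without control replicate 1 it was 0.0726 for EMILIN2, 0.0795 for TGM1, 0.057 for TLL1 and 0.0848 for ELN, and without control replicate 2 it was 0.135 for EMILIN2, 0.0986 for COL27A1 and 0.0805 for ELN.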
